A study of Mus musculus with 6 samples.

Results

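The 38 genes described here encode the receptors that bind glutamate, the subunits that travel with them, the transporters that load glutamate into vesicles or clear it from the extracellular space, and the scaffold proteins beneath the postsynaptic membrane. They were chosen by name, as a list of 38 symbols among the 55573 genes of the count table, and 36 of the 38 passed the filter on low counts. *Ezh2* is the histone methyltransferase of PRC2, a Polycomb complex that represses transcription by marking histone H3 at K27. Mice on the C57BL/6J background received an adeno-associated virus (AAV2) in the vitreous, carrying *GFP* in the control group (AAV2-*GFP*) or *Ezh2* in the overexpression group (AAV2-*Ezh2*). Every mouse in both groups then had its optic nerve crushed 2 weeks later, and retinal cells were sorted 3 days after that for CD90.2, the product of *Thy1*, to enrich retinal ganglion cells (RGCs). RNA-Seq counts were deposited for 3 libraries of each group. By the study's methods the mice were adults of both sexes. The promoter that drives the transgenes and whether the libraries of a group came from separate animals are not given in the sources used here, so p values measure the spread between these libraries, which may be technical.

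Glutamate is the transmitter of the direct path through the retina, from photoreceptors to bipolar cells to RGCs. AMPA, kainate and NMDA receptors are ion channels assembled from several subunits, whereas metabotropic receptors act through G proteins. ON bipolar cells read the photoreceptor signal through the metabotropic receptor *Grm6*. Transporters of the Slc1a family end the signal by uptake, in Muller glia and in neurons, and members of the Slc17a family fill synaptic vesicles in the cells that release glutamate.

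The libraries held 30569933 to 35971192 counts. *Ezh2* itself reached 28.8 to 34.6 CPM (CPM values are counts scaled to the library total) in GFP libraries and 78.0, 65.3 and 104.8 CPM in Ezh2 replicates 1, 2 and 3. Across genes, log2 CPM of Ezh2 replicate 3 correlated at 0.958 to 0.972 with the other libraries, which correlated among themselves at 0.976 to 0.988. It was left out of the main fit, because the study left out 1 Ezh2 library and its heatmap columns show the other 5. Its values are printed throughout, and so are fits on all 6 libraries. The labelled cell type was checked against its markers. *Thy1*, the gene behind the sort, reached 87.2 to 92.6 CPM in GFP libraries, but *Pou4f2*, a transcription factor that defines RGCs, had 0 to 3 counts in each of the 6 libraries, where a library without any count could still hold up to 3, equal to 0.0834 to 0.0981 CPM (counting error only). The 9 listed Muller glia markers summed to between 25330 and 25876 CPM in GFP libraries and the 13 listed RGC markers to between 169.9 and 173.7 CPM. T cells also carry CD90.2 in mice, and the 10 listed T cell markers summed to between 464 and 495 CPM in GFP libraries. In Ezh2 replicates 1, 2 and 3 they summed to 637, 611 and 999 CPM. The samples are called sorted cells for this reason. In such bulk samples, fewer cells of a type and less RNA per cell cannot be told apart.

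In AAV2-*Ezh2* libraries, 4 members were called lower and 1 was called higher than in AAV2-*GFP* libraries. The 4 lower members encode the AMPA receptor subunit *Gria3* and the NMDA receptor subunits *Grin1*, *Grin2b* and *Grin3a*. The member called higher was *Grm8*, a metabotropic receptor of group III. To be called, a gene had to differ by more than 1.5-fold with an adjusted p under 0.05, in the quasi-likelihood test of edgeR over 20241 genes with Benjamini-Hochberg adjustment. The background was 1.28% of tested genes called lower and 2.52% called higher, against 4 and 1 of 36 tested members. The 4 lower members are also in the neuronal excitability list that the study chose on these libraries, so their direction here is not independent evidence.

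With all 6 libraries, 1 member, *Grin2b*, was called lower and 0 were called higher, at a background of 0.902% lower and 1.62% higher among 19732 genes. At an adjusted p under 0.05 with no threshold on fold change, 11 members were lower and 2 higher in the 5 libraries, where 7.68% of tested genes were lower and 10.1% higher. The corresponding counts with all 6 libraries were 5 lower and 0 higher, at 2.7% and 3.08% of tested genes. The unadjusted p was under 0.05 for 18 of the 36 members in 5 libraries and for 15 in all 6. The share of all tested genes under that unadjusted p was not computed, here or below. It is no smaller than their share under the adjusted p. The median log2 fold change over the 36 members was -0.09 in the 5 libraries, beside -0.01 over all tested genes, and -0.22 with all 6, beside 0.01. Of the 36 values, 21 were negative in the 5 libraries (58.3%, beside 51.3% of all tested genes) and 24 with all 6 (66.7%, beside 49.0%).

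**Figure D1:**
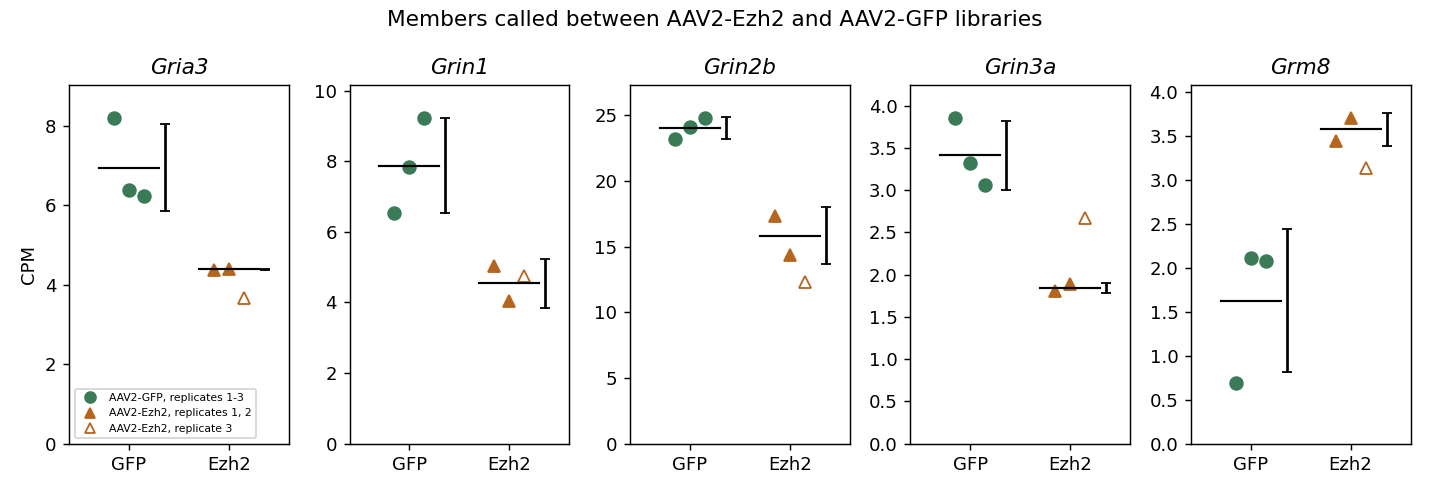
CPM in each library (vertical axis, from 0) of the 5 members called, with filled circles for AAV2-*GFP*, filled triangles for AAV2-*Ezh2* replicates 1 and 2 and an open triangle for AAV2-*Ezh2* replicate 3. Horizontal lines are means and bars are SD of the GFP libraries (n = 3) and of Ezh2 replicates 1 and 2 (n = 2). All 3 Ezh2 libraries lie below all 3 GFP libraries for *Gria3*, *Grin1*, *Grin2b* and *Grin3a*, and above them for *Grm8*. These genes were called on 5 of the 6 libraries shown, so their separation is not independent of the call. The share of all tested genes whose groups do not overlap was not computed, here or below.

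PRC2 is known to act at CpG-rich promoters, so the promoter letters of the called members were looked up in RefSeq windows of build GRCm38.p6. Windows were matched by symbol for 26 of the 38 members and for 2 of the 5 called members, *Grin1* and *Grm8*. Both are shown because they are a member called lower and a member called higher. Of each, the stretch before the first annotated exon of the gene is printed 5′ to 3′ on the strand of the gene, with every CG dinucleotide in capitals. The *Grin1* stretch is chr2:25319188-25319437 on the minus strand, and the *Grm8* stretch is chr6:28135179-28135396 on the minus strand, from the window farthest upstream of 3.
Grin1: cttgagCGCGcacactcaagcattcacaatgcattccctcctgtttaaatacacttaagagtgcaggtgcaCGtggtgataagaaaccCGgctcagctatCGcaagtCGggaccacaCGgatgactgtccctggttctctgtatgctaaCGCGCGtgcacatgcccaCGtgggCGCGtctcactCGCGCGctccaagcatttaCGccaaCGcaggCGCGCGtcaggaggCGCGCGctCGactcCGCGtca
Grm8: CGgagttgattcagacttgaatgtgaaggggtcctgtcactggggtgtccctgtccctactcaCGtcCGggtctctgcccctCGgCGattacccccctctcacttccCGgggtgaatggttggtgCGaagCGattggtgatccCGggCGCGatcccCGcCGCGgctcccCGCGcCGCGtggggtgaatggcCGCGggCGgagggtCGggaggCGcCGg

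Both stretches were dense in CG, which reads the same on both strands. *Grin1* had 27 CG in 250 bases and *Grm8* had 24 in 218 bases. In the 250 bases before the start, 8.56% of all 32851 promoter windows held at least the 27 CG of *Grin1*, and 6.78% held at least the 29 of the same *Grm8* window. The other 2 *Grm8* windows held 8 and 2 CG. Over the 35 windows of members the median was 9 CG, beside 6 over all windows, and the range ran from 0 at 1 start of *Neto2* to 42 at *Grik3*. The letters GGGCGG, the box bound by Sp1, which holds a CG of its own, were searched on both strands and were found in 17 of the 35 windows (48.6%, beside 32.7% of all windows), 1 of them in the printed stretch of *Grm8*. The cAMP response element TGACGTCA, which reads the same on both strands and can overlap CG, was in 0 of 35 windows and in 1.55% of all windows. These counts describe letters and do not show binding.

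The NMDA receptor needs the subunit *Grin1*, which pairs with Grin2 subunits that bind glutamate or with Grin3 subunits that bind glycine. Of the 7 members of this family, 3 were called lower and 0 higher. The obligatory subunit *Grin1* (chromosome 2, 25291181 to 25319187, GRCm38) was counted 200, 248 and 284 times in GFP libraries, and 162, 142 and 171 times in Ezh2 libraries. These counts correspond to 6.54, 7.84 and 9.24 CPM against 5.03, 4.05 and 4.75 CPM, and the groups did not overlap. In the 5 libraries the log2 fold change was -0.78 (SE 0.18, edgeR adjusted p = 0.00200), a level 1.72-fold lower. With all 6 libraries the value was -0.73 (SE 0.19), and the adjusted p of 0.0527 no longer passed. Leaving out any 1 of the 5 libraries kept the call of *Grin1*. The antisense gene *Grin1os* shares 1307 exon bases with it and had 5 counts in GFP replicate 1 and 0 elsewhere.

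*Grin2b*, which gives NMDA receptors slow kinetics and is the main Grin2 subunit of immature neurons, was the highest NMDA subunit in GFP libraries in CPM per kb of exon, at 0.967 beside 0.812 for *Grin1* and 0.576 for *Grin2d*. In Ezh2 replicates 1 and 2 it stood at 0.638 and *Grin2d* at 0.784 CPM per kb. Its counts were 708, 763 and 763 in GFP libraries and 559, 502 and 443 in Ezh2 libraries, or 24.0 ± 0.84 CPM (SD, n = 3) against 15.8 ± 2.14 CPM in Ezh2 replicates 1 and 2 (n = 2). The groups did not overlap, and Ezh2 replicate 3 was the lowest of the 6 at 12.3 CPM. The log2 fold change was -0.59 (SE 0.10, edgeR adjusted p = 5.26e-05), which is 1.51-fold lower and just past the threshold on fold change. With all 6 libraries it was -0.68 (SE 0.13, edgeR adjusted p = 0.0177). Leaving out GFP replicate 3 or Ezh2 replicate 2 from the 5 libraries ended the call, with log2 fold changes of -0.57 and -0.47.

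*Grin3a* lowers the calcium permeability of NMDA receptors. It had 118, 105 and 94 counts in GFP libraries and 58, 66 and 96 in Ezh2 libraries, the last in Ezh2 replicate 3. On the CPM scale this was 3.86, 3.32 and 3.06 against 1.80, 1.88 and 2.67, so replicate 3 lay between the other Ezh2 libraries and the GFP libraries. The log2 fold change was -0.88 (SE 0.26, edgeR adjusted p = 0.0149) in 5 libraries and -0.64 (SE 0.25, adjusted p = 0.156) in all 6. The call was lost without GFP replicate 1, Ezh2 replicate 1 or Ezh2 replicate 2, with adjusted p values of 0.0525, 0.0958 and 0.0728.

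The other NMDA members were not called. *Grin2d*, a subunit of low magnesium sensitivity, had 121, 115 and 120 counts in GFP libraries and 192, 157 and 157 in Ezh2 libraries, without overlap, and a log2 fold change of 0.45 (SE 0.20, edgeR adjusted p = 0.128). *Grin2a*, *Grin2c* and *Grin3b* had between 2 and 26 counts in every library, and their log2 fold changes of 0.25, -1.03 and 0.84 had SE from 0.58 to 0.64. Differences in these 3 genes were not detectable at this depth unless large. Reads of *Grin3b* cannot be told apart from those of *Tmem259* if the counting did not use strand, since the 2 genes share 1059 exon bases on opposite strands and *Tmem259* had 2189 to 3860 counts per library.

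The makeup of the Grin2 family was also compared within each library, which does not depend on scaling between libraries. *Grin2b* made up 56.4, 57.3 and 59.2% of the summed CPM per kb of *Grin2a* to *Grin2d* in GFP libraries, and 41.6, 43.4 and 38.4% in Ezh2 libraries. The means differed by -15.1 percentage points in the 5 libraries (57.6 ± 1.39% against 42.5 ± 1.25%) and by -16.5 with all 6. The exact two-sided permutation test gave p = 0.2 for 3 against 2 libraries and p = 0.1 for 3 against 3. These are the smallest values that this test, which doubles the smaller tail, can give with so few libraries. The 5 shares compared in this way have Benjamini-Hochberg adjusted p values of 0.333 to 0.4 in the 5 libraries and 0.25 to 1 in all 6. *Grin3a* made up 11.4, 9.48 and 8.42% of all Grin genes in GFP libraries and 5.92, 7.37 and 9.80% in Ezh2 libraries. Ezh2 replicate 3 lay among the GFP libraries for this share, and the exact permutation p was 0.2 in the 5 libraries and 0.3 in all 6.

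AMPA receptors carry most fast excitation. The subunit *Gria4* made up most of this family in every library, at 137.5, 133.0 and 135.8 CPM in GFP libraries and 106.7, 111.6 and 86.5 CPM in Ezh2 libraries. The groups did not overlap, and the log2 fold change was -0.30 (SE 0.05, edgeR adjusted p = 0.000114) in the 5 libraries and -0.38 (SE 0.08, adjusted p = 0.0345) in all 6. It passed the threshold on p but not the threshold on fold change in both fits. The called member *Gria3* (chromosome X, 41400854 to 41678601) was far less abundant. It had 251, 202 and 192 counts in GFP libraries and 141, 154 and 132 in Ezh2 libraries, again with no overlap. Its log2 fold change was -0.65 (SE 0.18, edgeR adjusted p = 0.0112), or 1.57-fold lower, and -0.71 (SE 0.18, adjusted p = 0.0526) with all 6 libraries. The call was lost without GFP replicate 1, Ezh2 replicate 1 or Ezh2 replicate 2, with log2 fold changes of -0.51, -0.63 and -0.67 and adjusted p values of 0.0731, 0.0635 and 0.0557.

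*Gria1* had log2 fold change 0.24 (SE 0.11, edgeR adjusted p = 0.158). *Gria2*, the subunit that makes AMPA receptors impermeable to calcium, had 8.70, 7.24 and 7.39 CPM in GFP libraries and 7.92, 6.71 and 3.92 CPM in Ezh2 libraries, so the groups overlapped and Ezh2 replicate 3 was the lowest. The log2 fold change of *Gria2* in the 5 libraries was -0.08 (SE 0.16, edgeR adjusted p = 0.793). *Gria2* made up 1.92 to 2.21% of the summed CPM per kb of *Gria1* to *Gria4* in GFP libraries and 1.56 to 2.51% in Ezh2 libraries. The ranges overlapped, and the exact permutation p was 0.4 in the 5 libraries and 1 in all 6.

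Kainate receptors were led by *Grik3* and *Grik5*, at 17.8 and 12.2 CPM per kb in GFP libraries. *Grik3* had 160.4, 156.7 and 163.4 CPM in GFP libraries and 173.4, 159.2 and 138.8 CPM in Ezh2 libraries. Its groups overlapped, and its log2 fold change of 0.06 (SE 0.05) had the narrowest error among members of this family. None of the 5 Grik members passed an adjusted p of 0.05 in either fit, and 1 of 5 had an unadjusted p under 0.05 in each. Their log2 fold changes ran from -0.27 at *Grik4* to 0.13 at *Grik2*. *Neto2*, an auxiliary subunit of kainate receptors, had 50.6, 46.4 and 49.98 CPM in GFP libraries and 38.7, 42.4 and 29.9 in Ezh2 libraries, with no overlap. Its log2 fold change was -0.26 (SE 0.08, edgeR adjusted p = 0.0139), and -0.37 (adjusted p = 0.0952) with all 6 libraries. *Neto1*, its paralog, had 15 to 31 counts in each library and an adjusted p of 0.451. The delta receptor *Grid1* had 12.5, 10.6 and 10.6 CPM against 12.2, 8.36 and 6.12 CPM, with overlap and an adjusted p of 0.627.

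**Figure D2:**
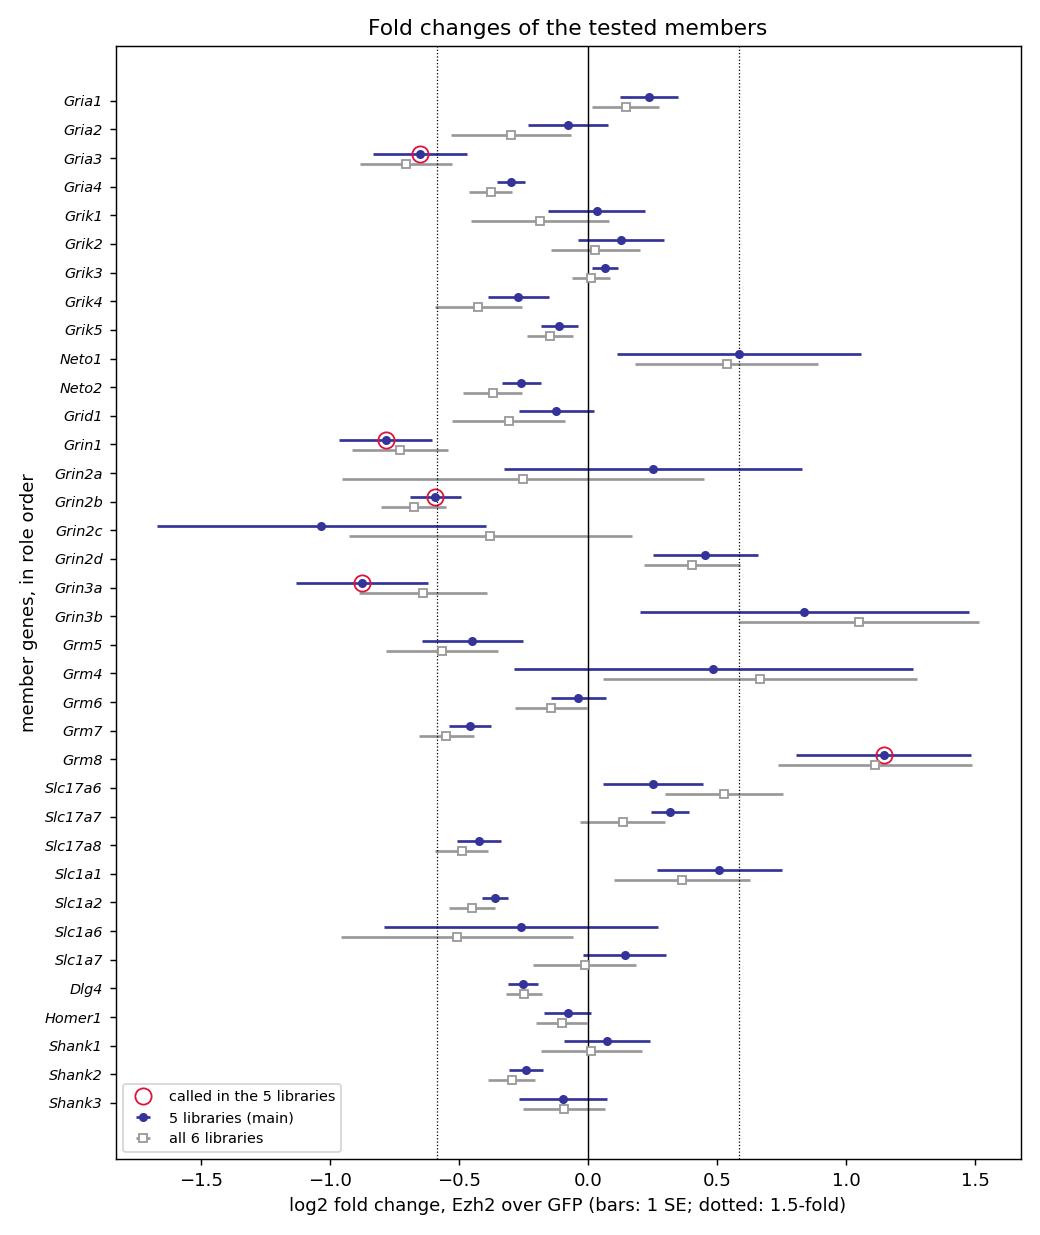
Log2 fold change of Ezh2 over GFP libraries (horizontal axis) for each of the 36 tested members (vertical axis, in role order), with bars of 1 SE. Filled circles are the 5 libraries, open squares all 6, dotted lines 1.5-fold, and red rings the 5 called members. *Grik3* and *Slc1a2* have SE of 0.05, whereas *Grin2c* and *Grin3b* have SE of 0.64.

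Among metabotropic receptors, 2 members of group III passed on p, with *Grm8* higher and *Grm7* lower. Both reside at presynaptic terminals, where they lower transmitter release. *Grm7* (chromosome 6, 110645581 to 111567230) was the highest metabotropic member, at 38.1, 39.2 and 36.4 CPM in GFP libraries and 27.1, 27.7 and 21.0 CPM in Ezh2 libraries. It passed the threshold on p in both fits, with log2 fold changes of -0.46 (SE 0.08, edgeR adjusted p = 8.98e-05) and -0.55 (SE 0.11, adjusted p = 0.0213). Its change was 1.37-fold and 1.46-fold, under the threshold of 1.5. *Grm8* (chromosome 6, 27275119 to 28135178) had 21, 67 and 64 counts in GFP libraries and 111, 130 and 113 in Ezh2 libraries. GFP replicate 1 stood apart from the other GFP libraries at 0.687 CPM, beside 2.12 and 2.08 CPM, and the groups did not overlap. The log2 fold change was 1.14 (SE 0.34, edgeR adjusted p = 0.0235), or 2.21-fold higher, and 1.11 (SE 0.38, adjusted p = 0.118) with all 6 libraries. Without GFP replicate 1 it was 0.78 and kept its call, and without Ezh2 replicate 1 or 2 the adjusted p was 0.0820 or 0.143.

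*Grm6*, the receptor of ON bipolar cells, had 508, 535 and 537 counts in GFP libraries and 584, 517 and 438 in Ezh2 libraries. Its log2 fold change was -0.04 (SE 0.11, edgeR adjusted p = 0.855), and the groups overlapped. *Grm4* had 4 to 15 counts per library and was not called. *Grm5*, of group I, had 210, 178 and 187 counts against 176, 125 and 116, without overlap, and a log2 fold change of -0.45 (SE 0.20, adjusted p = 0.118). It was called without Ezh2 replicate 1, at a log2 fold change of -0.77, where 1 Ezh2 library remained. *Grm2* and *Grm3*, of group II, had 0 to 14 counts per library and did not pass the filter. *Grm3* had 4, 8 and 5 counts in GFP libraries and 6, 6 and 0 in Ezh2 libraries.

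The vesicular transporters also split. *Slc17a8* (VGLUT3), carried by a class of amacrine cells, had 31.9, 30.3 and 32.9 CPM in GFP libraries and 22.6, 24.3 and 19.1 CPM in Ezh2 libraries. Its log2 fold change was -0.42 (SE 0.09, edgeR adjusted p = 0.000498), and -0.49 (SE 0.10, adjusted p = 0.0277) with all 6 libraries. *Slc17a7* (VGLUT1), the vesicular transporter of photoreceptors and bipolar cells, had 36.7, 35.6 and 35.9 CPM in GFP libraries and 44.4, 44.8 and 26.8 CPM in Ezh2 libraries. Ezh2 replicates 1 and 2 lay above all GFP libraries and Ezh2 replicate 3 below them. The log2 fold change of 0.32 (SE 0.07, adjusted p = 0.00220) in the 5 libraries was 0.13 (SE 0.17, adjusted p = 0.646) in all 6. The summed rod and cone markers were also higher in Ezh2 replicates 1 and 2. The 10 rod markers summed to 467 to 552 CPM in GFP libraries, to 829 and 883 CPM in Ezh2 replicates 1 and 2, and to 490 CPM in replicate 3, and the 9 cone markers to 29.4 to 30.4, 59.4 and 67.9, and 39.8 CPM. Of the rod markers 5 of 10 were called higher in the 5 libraries and of the cone markers 8 of 9, and with all 6 libraries 0 of 10 and 2 of 9 were called higher. None of the 19 was at 0, and their part in the *Slc17a7* value was not tested.

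*Slc17a6* (VGLUT2), the vesicular transporter of RGCs, had 125, 140 and 153 counts in GFP libraries and 185, 171 and 294 in Ezh2 libraries. The groups did not overlap in counts but did on the CPM scale, and the log2 fold change was 0.25 (SE 0.19, edgeR adjusted p = 0.425), or 0.53 (SE 0.23, adjusted p = 0.199) with all 6. Its share of the 3 vesicular transporters in CPM per kb was 5.29 to 6.34% in GFP libraries and 7.56, 6.30 and 14.4% in Ezh2 libraries. The exact permutation p was 0.4 in the 5 libraries and 0.2 in all 6, and Ezh2 replicate 3 carried most of the difference.

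*Slc1a2* (GLT-1), a transporter that takes up glutamate from the extracellular space, was the most abundant of the 38 members by far. It reached 848.7, 837.8 and 903.8 CPM in GFP libraries and 668.3, 665.8 and 514.2 CPM in Ezh2 libraries, with no overlap. The log2 fold change was -0.36 (SE 0.05, edgeR adjusted p = 3.64e-06), or 1.28-fold lower, and -0.45 (SE 0.09, adjusted p = 0.0217) with all 6 libraries. It passed on p and not on fold change. *Slc1a2* held 95.7 to 96.5% of the summed CPM per kb of the 4 Slc1a members in GFP libraries and 94.2 to 95.3% in Ezh2 libraries. The means differed by -1.63 percentage points in the 5 libraries (exact permutation p = 0.2) and by -1.33 in all 6 (p = 0.1).

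Markers of Muller glia, which surround retinal synapses, were set beside this value. *Glul*, the glutamine synthetase of these cells, had a log2 fold change of -0.49 (SE 0.05), *Rlbp1* of -0.31 (SE 0.05) and the glial glutamate transporter *Slc1a3* of -0.20 (SE 0.05), each past the threshold on p. Of the 9 listed Muller glia markers, 6 were lower at that threshold in the 5 libraries and 3 (*Glul*, *Rlbp1* and *Kcnj10*) with all 6. In both fits 1 was called higher (*Apoe*, log2 fold change 0.72, which macrophages also express), and none was at 0. The sum of the 9 was 24207 and 25835 CPM in Ezh2 replicates 1 and 2 and 20069 CPM in replicate 3, beside 25330 to 25876 CPM in GFP libraries. *Apoe* made up much of that sum, at 5471 to 5637 CPM in GFP libraries and 8460, 9638 and 7102 CPM in Ezh2 libraries. For the sum of all 9, Ezh2 replicate 2 lay within the GFP range. *Apoe*, the marker called higher, was then set aside with its direction known, so the separation that follows depends on that choice. The other 8 summed to 19693 to 20401 CPM in GFP libraries and to 15747, 16198 and 12966 CPM in Ezh2 libraries, without overlap. The ratio of the means of Ezh2 replicates 1 and 2 and of GFP was 0.792 for this sum. *Glul* made up much of it, at 9540 to 9900 CPM in GFP libraries and 6937, 6898 and 5446 CPM in Ezh2 libraries. Of the 9 log2 fold changes in the 5 libraries, 3 were positive, that of *Vim* (0.13, SE 0.05) among them. Of the listed neuronal markers, 0 of 12 bipolar markers passed on p in either fit. Of the 9 cone markers, 8 were called higher in the 5 libraries and 2 with all 6. Which of these cells held *Slc1a2* cannot be told from bulk counts, and the part of any of these markers in its value was not tested.

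The other members of this family were rare. *Slc1a1*, a neuronal transporter, had 69 to 101 counts in GFP libraries and 98 to 155 in Ezh2 libraries and was not called (log2 fold change 0.51, SE 0.24). It shares 2631 exon bases with *4430402I18Rik* on the opposite strand, which had 24 to 54 counts per library. *Slc1a7* (EAAT5), found on photoreceptors and bipolar cells, had 180 to 252 counts in GFP libraries and 181 to 272 in Ezh2 libraries, with a log2 fold change of 0.14 (SE 0.16) and groups that overlapped. *Slc1a6* had 9 to 24 counts per library.

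Of the 5 scaffold genes, 2 were lower on p alone. *Dlg4*, which encodes PSD-95, had 101.8, 104.7 and 107.0 CPM in GFP libraries and 92.4, 81.8 and 82.7 CPM in Ezh2 libraries, without overlap. Its log2 fold change was -0.25 (SE 0.06, edgeR adjusted p = 0.00193), and -0.25 (SE 0.07, adjusted p = 0.0742) with all 6 libraries. *Shank2*, which links receptor complexes to actin, had 78.9, 75.6 and 79.9 CPM against 71.5, 59.9 and 54.6 CPM, with log2 fold changes of -0.24 (SE 0.07, adjusted p = 0.00976) and -0.30 (SE 0.09, adjusted p = 0.0928). *Homer1*, *Shank1* and *Shank3* had log2 fold changes of -0.08, 0.07 and -0.10 in the 5 libraries, with SE of 0.09 to 0.17, and adjusted p values of 0.619 to 0.825. None of the 5 scaffold genes was called in either fit.

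**Figure D3:**
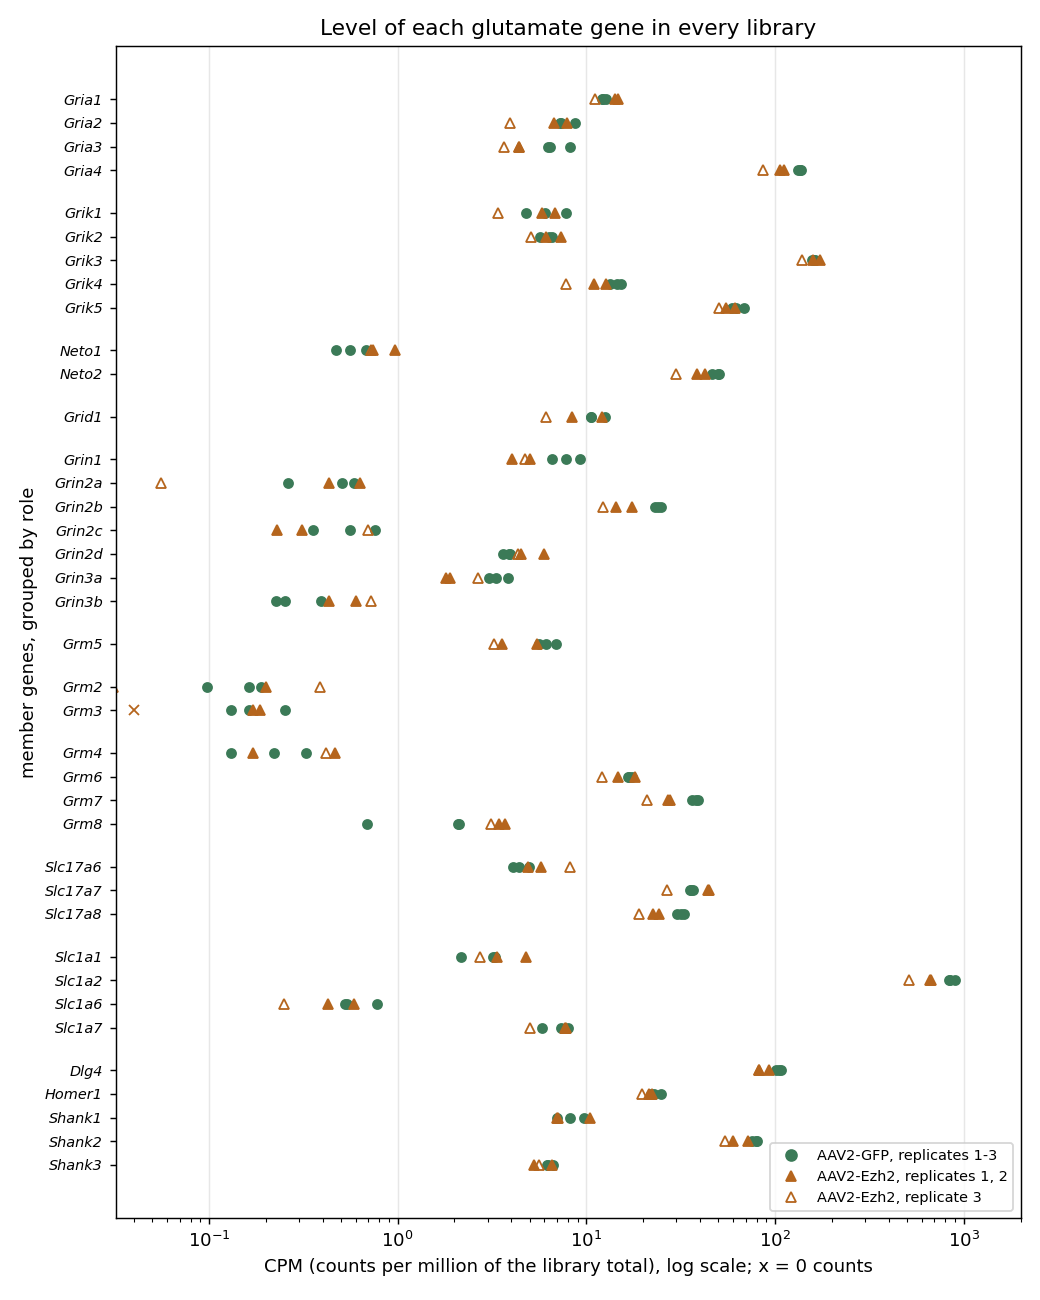
CPM of each of the 38 members in every library (horizontal axis, log scale), with genes grouped by role on the vertical axis. Filled circles are GFP libraries, filled triangles Ezh2 replicates 1 and 2, open triangles Ezh2 replicate 3, and a cross marks 0 counts. *Slc1a2* lies between 514.2 and 903.8 CPM, and *Grm2* and *Grm3* reach at most 0.389 CPM in any library.

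Levels between genes were compared per kb of exon. *Slc1a2* came first at 65.7 CPM per kb in GFP libraries, followed by *Gria4* at 21.5, *Grik3* at 17.8, *Grik5* at 12.2, *Neto2* at 7.99 and *Dlg4* at 7.89. The called members stood far lower, with *Grin2b* at 0.967, *Grin1* at 0.812, *Gria3* at 0.705, *Grin3a* at 0.278 and *Grm8* at 0.165 CPM per kb. Of the 11 members with a mean of at least 20 CPM over the 6 libraries, 0 were called, 8 had an adjusted p under 0.05, and 9 had a negative log2 fold change, with a median of -0.25 and a median SE of 0.07. Of the 25 tested members under 20 CPM, 5 were called, the same 5 were all that passed on p, and 12 were negative, with a median of 0.03 and a median SE of 0.19. The shares of all tested genes at these levels were not computed, so the split cannot be told apart from the difference in SE.

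**Figure D4:**
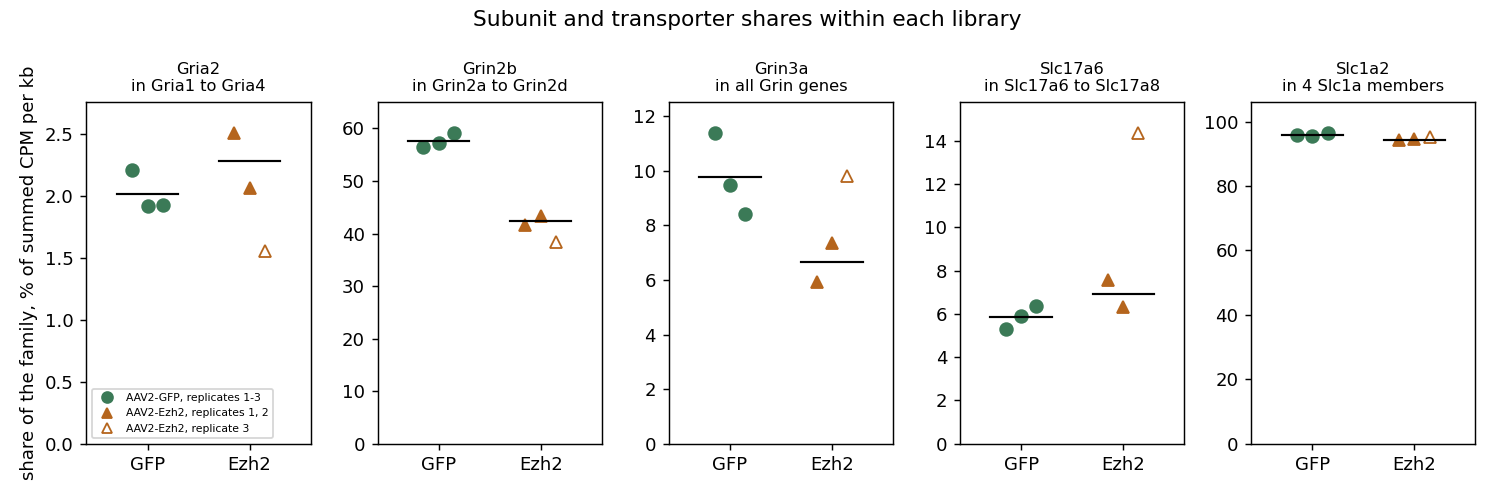
Share of 1 gene in its family within each library (vertical axis, percent of the summed CPM per kb, from 0), for 5 families. Symbols are as for single members, and lines are means of the 3 GFP libraries and of Ezh2 replicates 1 and 2. The *Grin2b* share is 56.4 to 59.2% in GFP libraries and 38.4 to 43.4% in Ezh2 libraries.

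Markers of other cell types moved with the groups as well. The amacrine transcription factor *Tfap2b* had 370, 318 and 315 counts in GFP libraries and 33, 77 and 37 in Ezh2 libraries, and the horizontal cell marker *Calb1* had 97, 79 and 95 against 18, 11 and 3. These were the largest changes of their lists. The amacrine marker *Gad1* went the other way, with 59, 56 and 59 counts against 118, 89 and 436 (log2 fold change 0.73, edgeR adjusted p = 0.0537 in the 5 libraries). The horizontal markers *Prox1* and *Onecut2* had log2 fold changes of -0.22 and -0.20. Of 11 listed amacrine markers, 8 were tested, 3 of them were lower at an adjusted p under 0.05 in the 5 libraries and 0 were higher. The 11 summed to 516 to 533 CPM in GFP libraries and 402 to 454 CPM in Ezh2 libraries, and *Chat*, *Slc18a3* and *Th* had 0 counts in some libraries. *Pax6* made up most of that sum, at 442 to 450 CPM in GFP libraries and 350 to 400 CPM in Ezh2 libraries. Of the 12 bipolar markers, 0 passed on p, and their sum was 660 to 665 CPM in GFP libraries and 536 to 659 CPM in Ezh2 libraries. Of the 13 RGC markers, 11 were tested, 5 were higher on p and 0 lower (3 and 0 with all 6 libraries), and they summed to 169.9 to 173.7 CPM in GFP libraries and 195 to 204 CPM in Ezh2 libraries. Most of that sum was *Thy1*, the gene behind the sort for CD90.2, which T cells also carry. It reached 87.2 to 92.6 CPM in GFP libraries and 98.9 to 113.8 CPM in Ezh2 libraries. Of 6 listed macrophage markers, 5 were tested and 4 were called higher in both fits, with a sum of 481 to 546 CPM in GFP libraries and 1435 to 2189 CPM in Ezh2 libraries, where *Cd163* was at 0 in Ezh2 replicate 2. *Gfap*, an intermediate filament of astrocytes and reactive Muller glia, had 415.1, 412.6 and 426.0 CPM in GFP libraries and 745.2, 919.3 and 719.3 CPM in Ezh2 libraries, with a log2 fold change of 1.01 (SE 0.08, edgeR adjusted p = 1.38e-05), and was called in both fits. The part of these markers in the values of *Grin1*, *Grin2b*, *Grin3a*, *Gria3* and *Grm8* was not tested.

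Other genes of the glutamatergic synapse were taken from 5 further lists of 80 genes, of which 79 were tested. Of these, 3 were called lower and 4 higher in the 5 libraries, and 2 lower and 2 higher with all 6, beside the backgrounds given above. The median log2 fold change over the 79 genes was -0.11 in the 5 libraries. At an adjusted p under 0.05 alone, 20 were lower and 7 higher in the 5 libraries, and 13 lower and 2 higher with all 6.

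The auxiliary subunits and trafficking proteins of AMPA receptors (21 of 22 tested) had 2 genes called lower and 2 higher. *Cacng5*, a transmembrane AMPA receptor regulatory protein, had 166, 169 and 154 counts in GFP libraries and 57, 63 and 47 in Ezh2 libraries, with no overlap. Its log2 fold change was -1.55 (SE 0.23, edgeR adjusted p = 8.58e-06), and -1.66 (SE 0.20, adjusted p = 0.00360) with all 6 libraries. Its relative *Cacng3* had 87, 67 and 78 counts against 45, 49 and 49, with a log2 fold change of -0.83 (SE 0.29, adjusted p = 0.0494), and 0.0830 as the adjusted p with all 6. *Grip2*, which anchors AMPA receptors, was higher by a log2 fold change of 0.94 (SE 0.26, adjusted p = 0.00895), with 0.0627 as the adjusted p in all 6. The pentraxin *Nptx1*, which clusters AMPA receptors from outside the cell, had 240, 227 and 235 counts in GFP libraries and 415, 523 and 449 in Ezh2 libraries, a log2 fold change of 0.89 (SE 0.13) called in both fits.

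Among 18 genes of excitatory synapse adhesion, 1 was called lower and 2 higher. The presynaptic organizer *Nrxn2* had 303, 273 and 228 counts against 187, 172 and 144, with a log2 fold change of -0.68 (SE 0.17), and was called in both fits. *Lrfn5* had 28, 38 and 25 counts in GFP libraries and 91, 78 and 85 in Ezh2 libraries, with a log2 fold change of 1.37 (SE 0.32), also called in both. *Lrrtm1*, a postsynaptic partner of neurexins, had 39, 22 and 18 counts against 63, 67 and 48, with a log2 fold change of 1.19 (SE 0.36), and an adjusted p of 0.115 with all 6 libraries. No gene was called in either fit among 11 other receptor and uptake genes, 18 other postsynaptic density genes and 11 genes of the mGluR6 cascade. In these 3 lists 6, 4 and 2 genes passed on p in the 5-library fit (2, 2 and 1 with all 6 libraries), and in the 5 libraries 8, 6 and 6 had an unadjusted p under 0.05. The cascade genes include *Trpm1*, the channel that *Grm6* closes, with a log2 fold change of -0.10 (SE 0.07).

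**Figure D5:**
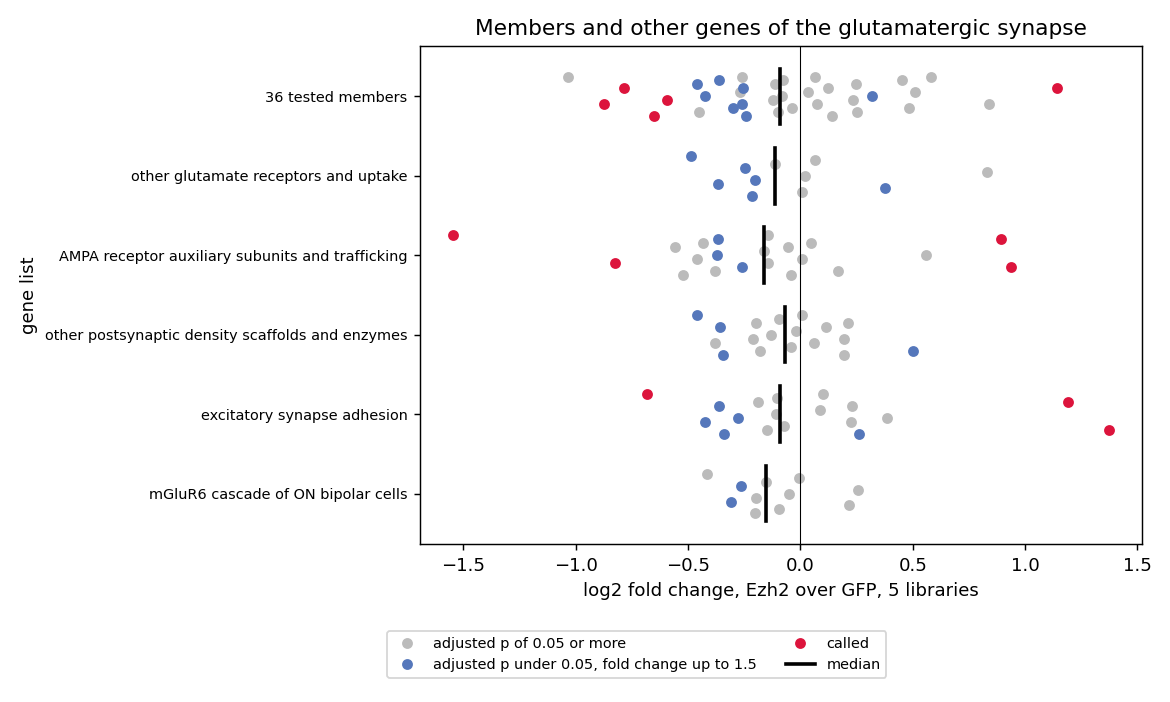
Log2 fold change of Ezh2 over GFP in the 5 libraries (horizontal axis) for the 36 tested members and the 79 tested genes of 5 other lists (rows), with black lines at the medians. Red points are called genes, blue points passed on p alone and grey points did not pass. Medians lie between -0.16 for AMPA receptor auxiliary subunits and -0.07 for other postsynaptic density genes.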

How the data were processed

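Sorted retinal cells were profiled in 6 RNA-Seq libraries, 3 per group. The authors deposited raw read counts per Ensembl gene, made from stranded total RNA libraries. The submitters' processing notes name STAR 2.7.0d and build GRCm38. The counting program and its strand setting are not given in the sources used here, so genes with antisense partners are uncertain to that extent. Of 55573 identifiers, 55480 matched GENCODE M21, which gave symbols, coordinates and exon lengths, and 0 columns of sample values were left unused.

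After filterByExpr and TMM scaling, the counts entered the robust quasi-likelihood test of edgeR 4.0.16 (R 4.3.3), on GFP replicates 1 to 3 and Ezh2 replicates 1 and 2. Which Ezh2 library the study left out is an inference from its heatmap. SE of log2 fold changes came from the F statistic. CPM were computed on library totals and, between genes, divided by exon length. Shares were compared with exact permutation tests (scipy 1.17.1, two-sided). Results were recomputed with all 6 libraries, with every library omitted in turn, with a block for the replicate number, with DESeq2 1.42.0 and limma-voom (limma 3.58.1), and with other scalings, other filters and the threshold on p alone. A lone remaining Ezh2 library was assumed to vary like the others.

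The members and lists were chosen with earlier results of these data known. All members are accounted for by role. Called members and the highest member of each role are given for every library, and of the other lists the called genes are named. The lists hold 80 other synaptic genes and markers of 13 cell types, of which 1 horizontal cell marker could not be matched. The marker lists of astrocytes, microglia, macrophages, B cells and vessels had medians of -0.01, 0.28, 1.35, 0.23 and -0.05 on the log2 scale in the 5 libraries, and horizontal cell markers of -0.22. Between libraries of the same replicate number, deviations from the group means correlated at -0.00454, -0.0199 and -0.00991. These values gave no sign of pairing. They cannot exclude it, since Ezh2 replicate 3 is part of the Ezh2 group mean.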

Additional observations from a re-analysis of the deposited data

How the results depend on the processing

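The 5 members were called in the same directions with DESeq2, limma-voom, RLE scaling, library totals alone, no filter and a mean of at least 50 counts (30 members tested). With all 6 libraries 1 member was called, lower, and 0 higher, and 4 other pathway genes in place of 7. On p alone, 13 members (11 lower, 2 higher) and 27 other pathway genes passed. With the replicate block, 4 of the 5 calls held in the 5 libraries (*Grin2b* was lost at a log2 fold change of -0.57) and 1 member was called, lower, with 0 higher, in all 6. The block was fitted although the labels do not say that libraries of the same number were paired, and 722 genes in all were called with it, beside 770 without.

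Leaving out 1 library gave 0 to 5 members called, 0 to 4 lower and 0 to 1 higher. Of the 5 libraries, the call of *Grin1* survived each omission, and the lowest count was 1 member without Ezh2 replicate 2 (3 without GFP replicate 1 or Ezh2 replicate 1). Of all 6, none was called without any 1 GFP library, 1 without Ezh2 replicate 1 and 2 without Ezh2 replicate 2, at 0, 0 and 0 higher. The median over members ran from -0.28 to -0.013.

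Some members that were not called changed sign. With all 6 libraries, and with the replicate block on them, *Grik1* was at -0.19 and -0.21, *Grin2a* at -0.25 and -0.41, and *Slc1a7* at -0.014 and -0.023 on the log2 scale. With 1 library left out, values ran from -0.50 to 0.025 for *Gria2*, -0.38 to 0.23 for *Grik1*, -0.094 to 0.24 for *Grik2*, -0.048 to 0.11 for *Grik3*, -0.58 to 0.11 for *Grid1*, -0.87 to 0.50 for *Grin2a*, -0.37 to 1.03 for *Grm4*, -0.28 to 0.092 for *Grm6*, -0.13 to 0.24 for *Slc1a7*, -0.23 to 0.32 for *Shank1* and -0.25 to 0.042 for *Shank3*. The cause of these changes was not tested. The shares of *Grin2b*, *Grin3a*, *Slc17a6* and *Slc1a2* kept their direction in all alternatives run, with the *Grin2b* difference between -17.6 and -10.7 percentage points. That of *Gria2* was 0.27, ran from -0.21 to 0.49 with 1 library left out, and was negative on leaving out GFP replicate 2, GFP replicate 3 or Ezh2 replicate 1 of all 6, omissions chosen for the shares after seeing the data. Depth limits the rare members most, and the SE reached 0.77 at *Grm4*, with 4 to 15 counts per library.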
